A study of Homo sapiens with 24 samples.

Results

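In OCI-Ly7 lymphoma cells, 626 of the 2615 super-enhancers (23.9%) lay wholly inside the body of a protein-coding gene and held the transcription start site (TSS) of no protein-coding gene. Membership was decided by position alone, from the start and stop of each row and the gene records of GENCODE version 44 on hg38, and no signal value was used. The TSS was the 5′ end of the gene record. A gene that contained a super-enhancer is called its host, and the shortest gene was taken where more than 1 contained it, which was the case for 18 super-enhancers. The remaining 1989 rows comprised 304 that touched no protein-coding gene, 541 that crossed a gene end without holding a TSS, 777 that held 1 TSS and 367 that held 2 or more.

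OCI-Ly7 was derived from a human germinal center-type (GCB) diffuse large B-cell lymphoma. The study made isogenic CRISPR clones and mapped histone marks in them with CUT&RUN, a method that cuts DNA at antibody-bound chromatin and sequences the cut fragments. There were 24 samples, 2 in each of 12 groups, for H3K27ac, H3K4me1 or H3K4me3 in non-edited control clones (WT), in clones with a homozygous CREBBP R1446C knock-in (C), in clones with a homozygous KMT2D knockout (K) and in clones with both lesions (CK). The analysed values came from 1 column in which both H3K27ac WT libraries were pooled, so replicate error is unknown throughout and no difference between groups of regions was tested. The other 22 samples were not analysed here.

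H3K27ac, an acetyl mark deposited by CREBBP and the related EP300, is found on active enhancers and promoters. Super-enhancers are stretches of neighbouring enhancer peaks with an unusually high summed signal, and in B cells they are known to lie at genes of lineage identity. Enhancers often sit in introns, where they can act on the gene that holds them or on another gene, and position alone does not tell which.

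Sequences at the edges of the leading super-enhancers come first, since every position and value below belongs to such regions. The deposited table gives a position for each stitched region and none for its inner constituents, but their summed length was a whole multiple of 0.401 kb in 2609 of the 2615 rows. The first and last 0.401 kb of a region were therefore taken as its edge windows, on the assumption that a constituent of that length lies at each end. The central stretch of such windows is printed for the 3 super-enhancers of highest signal, for CD86 (the T-cell costimulatory ligand) and for the one with the highest signal per bp. They are hg38, plus strand, 5′ to 3′, and capitals mark a match to 1 of 7 searched motifs.
FOXN3 first window, chr14:89178462-89178582: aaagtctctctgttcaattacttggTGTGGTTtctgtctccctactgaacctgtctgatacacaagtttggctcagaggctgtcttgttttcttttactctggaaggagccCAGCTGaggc
FOXN3 last window, chr14:89518055-89518175: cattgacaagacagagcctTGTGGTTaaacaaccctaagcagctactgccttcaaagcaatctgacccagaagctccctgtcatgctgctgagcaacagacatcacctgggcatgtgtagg
RMI2 first window, chr16:11283884-11284004: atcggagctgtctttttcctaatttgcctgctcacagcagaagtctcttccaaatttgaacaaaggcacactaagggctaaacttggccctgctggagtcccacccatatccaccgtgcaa
RMI2 last window, chr16:11348985-11349105: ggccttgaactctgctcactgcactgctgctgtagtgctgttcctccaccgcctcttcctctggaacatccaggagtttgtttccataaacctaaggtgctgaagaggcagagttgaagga
AUTS2 first window, chr7:69608821-69608941: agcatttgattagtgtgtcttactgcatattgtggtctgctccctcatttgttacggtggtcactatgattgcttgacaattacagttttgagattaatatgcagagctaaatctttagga
AUTS2 last window, chr7:69840114-69840234: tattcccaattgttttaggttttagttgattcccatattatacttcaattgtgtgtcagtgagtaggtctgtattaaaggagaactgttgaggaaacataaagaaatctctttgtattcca
CD86 first window, chr3:122086057-122086177: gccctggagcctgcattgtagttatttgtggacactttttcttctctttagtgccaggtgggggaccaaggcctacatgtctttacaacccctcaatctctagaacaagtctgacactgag
AHRR first window, chr5:415508-415628: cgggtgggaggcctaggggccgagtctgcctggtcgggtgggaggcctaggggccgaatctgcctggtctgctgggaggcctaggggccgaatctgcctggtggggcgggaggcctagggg
In these stretches, both FOXN3 windows held the RUNX motif and the first also held the E-box, while the other 6 held none of the 7 motifs. The AHRR window was repetitive: 88.6% of the bases in its full 0.401 kb matched the base 34 bp away.

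Over all edge windows, those inside gene bodies held the motifs about as often as the rest of the table did. At least 1 motif was present in 533 of 1251 member windows (42.6%) and in 43.1% of the 3966 windows of other rows, on either strand. The RUNX motif (TGTGGTT) was in 9.67% of member windows and 7.41% of the others, and the E-box (CAGCTG), bound by basic helix-loop-helix factors, was in 22.7% and 25.6%. The octamer (ATGCAAAT), the site of POU factors such as POU2F2, was in 2.80% and 2.32%. Shares for PU.1 (GAGGAAGT) were 3.36% and 3.33%, for AP-1 (TGANTCA) 11.9% and 11.5%, for kappaB (GGGANTTCC) 1.44% and 2.09%, and for the CRE (TGACGTCA) 0.160% and 0.252%. Base composition differed alongside: the median GC content of the whole region was 43.0% for super-enhancers inside genes and 46.5% for other rows, and its part in the motif shares was not tested.

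The summed H3K27ac signal of super-enhancers inside genes was close to that of the rest of the table. Their median signal was 19486, with an interquartile range of 14163 to 30845 and a range of 10658 to 152147, against a median of 19873 for other rows. The medians of the other 4 classes ran from 19140 for rows that touched no gene to 20902 for rows with 2 or more TSSs. The signal was at least 2 times the cutoff of 10617 in 268 of the 626 (42.8%), where 44.7% of the whole table reached that level. It was in the highest 10% of the table in 56 (8.95%).

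Signal per bp varied more between the classes than the summed signal did. Every row had passed the summed-signal cutoff of 10617, so a short region needed a high signal per bp to be listed. This partly fixes the contrasts below. Median region length ran from 46.9 kb for rows that touched no gene to 69.9 kb for rows crossing a gene end. The median signal per bp was 0.356 inside genes (interquartile range 0.242 to 0.561), close to the 0.340 of all other rows. By class, it was 0.452 for rows that touched no gene, 0.343 with 1 TSS, 0.331 with 2 or more and 0.294 across a gene end. By this measure, 89 of 626 (14.2%) were in the highest 10% of the table, against 8.70% of other rows. Rows that touched no gene reached that level in 20.7% of cases. The order changed with region length. Among regions of up to 41.1 kb, the median signal per bp was 0.698 for 174 super-enhancers inside genes and 0.543 for 480 other rows, and from 41.2 to 60.7 kb it was 0.351 and 0.320. From 60.8 to 89.3 kb, the order was the reverse, with 0.242 and 0.282, and above 89.3 kb the medians were 0.273 and 0.275. With 1 pooled column, the error of these differences cannot be given.

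**Figure D1:**
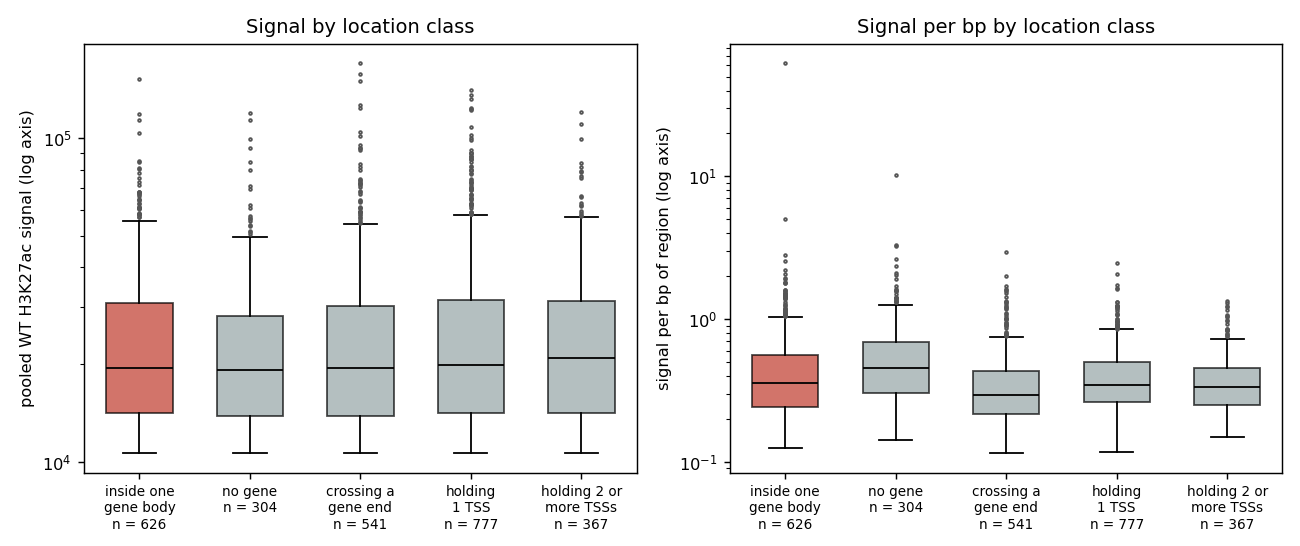
Pooled WT H3K27ac signal (left) and signal per bp of region (right), both on log axes, for the 5 location classes. Boxes give the median and quartiles, whiskers reach 1.5 times the interquartile range and points lie beyond. The summed signals overlap almost wholly, with medians from 19140 to 20902. The median signal per bp is 0.452 without a gene, 0.356 inside gene bodies, 0.343 with 1 TSS, 0.331 with 2 or more and 0.294 across a gene end.

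Constituent length separated super-enhancers inside genes from rows with a TSS. The summed constituent length, divided by 0.401 kb, exceeded the stated number of constituents by 1 or more in 115 of the 626 (18.4%), where 50% of the whole table did so. The share was 14.5% for rows that touched no gene and 22.7% for rows crossing a gene end, but 87.0% for rows with 1 TSS and 95.4% for rows with 2 or more. Per the study's methods, peaks within 2500 bp of a TSS were left out when regions were built, with non-coding RNA starts removed from that TSS set. The part of this step in the excess was not tested.

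The 11 super-enhancers of highest signal lay in FOXN3, RMI2, AUTS2, ANKRD44, CUX1, BCAR3, ABR, SPRED2, SMIM20, BACH2 and FGD4. FOXN3, a forkhead repressor, held the leading one, of 105 constituents over 340.0 kb (chr14:89178322-89518315), with a signal of 152147 and rank 3 in the table. It covered 68.8% of the gene and 5 exons of the canonical transcript. RMI2, a subunit of the BLM dissolvasome that limits recombination, came next at 118871 over only 65.5 kb (chr16:11283744-11349245), a signal per bp of 1.82. AUTS2, a regulator linked to Polycomb complexes and to neurodevelopment, held the third at 113993 over 231.7 kb (chr7:69608681-69840374). It lay wholly in intron 1 of the canonical transcript, and another protein-coding transcript of AUTS2 began inside it. ANKRD44, an ankyrin-repeat subunit of a protein phosphatase 6 complex, had a signal of 104012 over 195.7 kb.

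The next 7 had signals from 73293 to 85242 and differed widely in density. CUX1, a homeodomain factor, had 85242 over 267.6 kb and BCAR3, an adaptor and exchange factor, had 84583 over 212.7 kb, at 0.319 and 0.398 per bp. ABR, a regulator of the small GTPase RAC1, reached a nearly equal 80685 over 31.8 kb at 2.54 per bp, with only 5 constituents. SPRED2, an inhibitor of RAS-ERK signalling, had 80350 over 53.6 kb and was wholly in intron 1 of the canonical transcript. SMIM20, a factor of cytochrome c oxidase assembly, had 78017 over 54.1 kb. BACH2, the repressor that holds B cells in the germinal center program, had 75398 over 200.6 kb (rank 66). FGD4, an exchange factor for CDC42, had 73293.

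The highest signal per bp belonged to AHRR, the repressor of the aryl hydrocarbon receptor, and stood far from all others. This region was 1 constituent of 0.401 kb (chr5:415368-415768) in intron 5, with a signal of 24780 (rank 945) and 61.9 per bp, and it is the self-repeating window printed above. CCDC200 followed at 5.01 per bp over 4.17 kb and 2 constituents. IRF1, an interferon-response factor, had 2.80 over 13.0 kb, ABR 2.54, and ST6GAL1, the sialyltransferase that makes the CD22 ligand, 2.21 over 14.2 kb. Among all edge windows, a self-match above 60% at some shift occurred in 4 member windows, those of AHRR, RPH3AL, MACF1 and DUSP22, and in 16 windows of other rows. The part of such repeats in the signal was not tested.

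Hosts were long genes, which the rule partly fixes, since a gene must exceed the region it holds. Length here is the span of the gene record, which can far exceed the canonical transcript. For RMI2 it was 132 kb against 6.30 kb. The 539 hosts were 2.69% of the 20046 protein-coding genes. Their length had a median of 154.9 kb and a range of 25.4 to 2242 kb, against 27.4 kb for all protein-coding genes and 68.4 kb for the 10450 genes at least as long as the shortest host. The share of genes that held a super-enhancer was 0.617% between 25 and 50 kb, 3.17% between 50 and 100 kb, 10.5% between 100 and 200 kb, 12.6% between 200 and 400 kb and 14.2% between 400 and 800 kb. It did not go on rising: among the 130 genes of 800 kb or more, 10 (7.69%) were hosts. Members covered a median of 34.2% of the host each, and 234 hosts (43.4%) had 50% or more of their length covered.

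Signal followed the size of the region and the host only loosely. Spearman's rho over the 626 was 0.46 for signal and region length, 0.23 for signal and host length, and 0.40 for region length and host length. These points share a library pool and, in part, their hosts.

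Most hosts held 1 super-enhancer, and 65 hosts with 2 or more accounted for 152 of the 626. AUTS2 held 6 and FOXP1 held 5. CUX1, RERE, EHMT1, RUNX1, AFF3, PALM2AKAP2, PPP2R5C, ST6GAL1, RBFOX2, ZCCHC7 and CAMK2D held 3 each. Within such a host, the highest signal exceeded the lowest by a median factor of 1.59, with a range of 1.00 to 9.63. The super-enhancer nearest to the TSS was the highest one in 27 of the 65 hosts (41.5%).

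AUTS2 had the widest spread. In order from the TSS, its 6 regions had signals of 113993, 18242, 11842, 14437, 14085 and 13554, and began 10.4, 259.8, 353.1, 794.6, 858.7 and 1034 kb downstream. The first alone was above the median of the table, and the other 5 lay below it. A gap of over 400 kb without a member separated the third region from the fourth.

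FOXP1, a forkhead factor needed for B-cell development, was covered more evenly. Its 5 regions had signals of 46093, 64674, 11490, 36882 and 34084 from the TSS onward, beginning 9.53, 139.7, 300.7, 399.8 and 525.9 kb downstream, and together covered 73.8% of the 629.3 kb gene. The highest, at 64674, lay wholly in intron 3, and the lowest, at 11490, wholly in intron 5. Of the 5, 4 stood above the median of the table, and the weak one lay between strong neighbours.

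**Figure D2:**
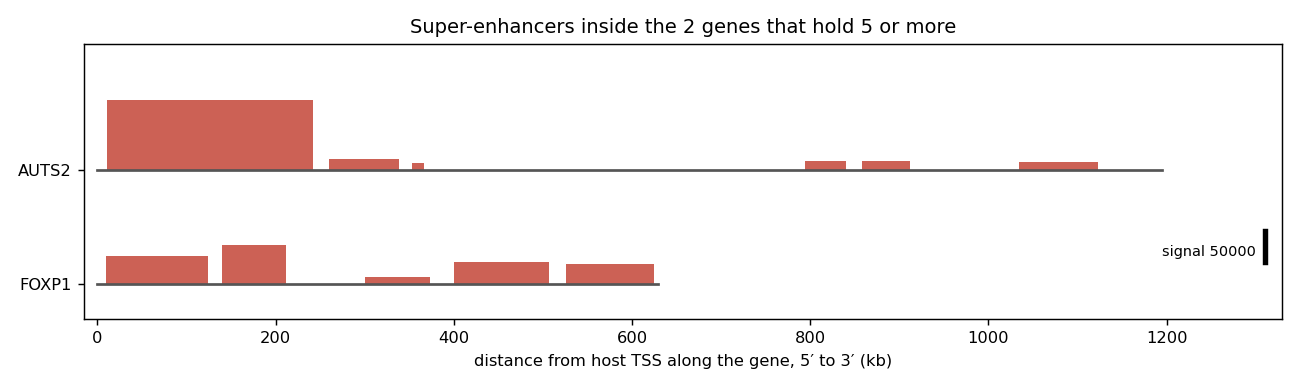
Super-enhancers inside AUTS2 and FOXP1, drawn to scale by distance from the host TSS (kb). Grey lines are the gene records, bar widths are region lengths and bar heights are the pooled WT H3K27ac signal on 1 linear scale. AUTS2 has 1 dominant region of 113993 near its TSS, whereas FOXP1 carries signals of 11490 to 64674 along its length.

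The distance from the host TSS to the nearest edge of the super-enhancer had a median of 29.9 kb, an interquartile range of 9.11 to 94.6 kb and a range of 0.060 to 2106 kb. It was under 10 kb in 174 (27.8%), under 50 kb in 388 (62.0%) and 250 kb or more in 55 (8.79%). The distance to the other end of the host had a median of 53.4 kb. As a share of both gaps, the gap on the TSS side was under 0.2 in 185 (29.6%) and 0.8 or more in 134 (21.4%), with 95 to 110 in each of the 3 bins between. By midpoint the order differed: the relative midpoint had a median of 0.480 along the host, and with the host cut into 3 equal parts it fell in the 5′ part in 184 (29.4%), in the middle part in 327 (52.2%) and in the 3′ part in 115 (18.4%). The length of the regions partly fixes this order. A region that covers much of its host must have its midpoint near the middle, and members covered a median of 34.2% each. The median signal was 21981 in the bin nearest to the TSS and 17983 to 20175 in the others.

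**Figure D3:**
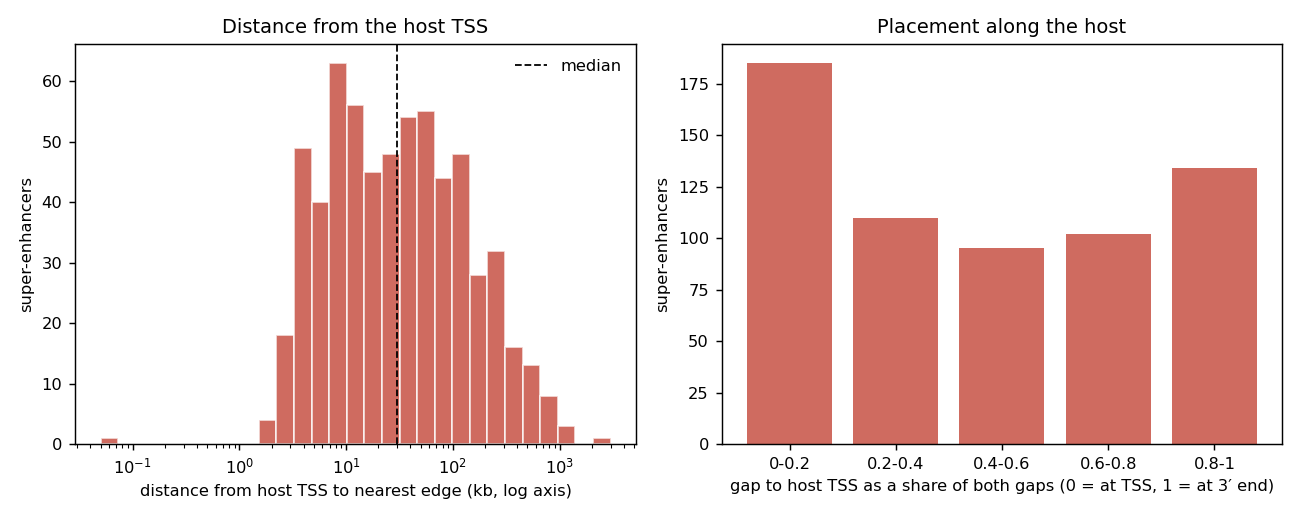
Distance from the host TSS to the nearest edge of each of the 626 super-enhancers in kb on a log axis (left, dashed line at the median of 29.9 kb), and the gap to the TSS as a share of the gaps to both ends of the host (right). Bars are counts of super-enhancers. The bins at either end hold 185 and 134, and the 3 between hold 95 to 110.

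Signal did not track that distance. Spearman's rho was -0.04 for signal and -0.07 for signal per bp over the 626, and the median signal was 19774 under 10 kb, 20704 from 10 to 25 kb and 18242 at 250 kb or more. The nearest to their TSS were in ABR (0.060 kb), EEF1A1, a translation elongation factor (1.67 kb), PPFIA1 (2.14 kb), ST8SIA4 (2.19 kb) and IRF1 (2.22 kb). ABR and IRF1 were also among the densest by signal per bp, but PPFIA1 was among the sparsest at 0.134. The ABR and IRF1 regions lay outside the canonical transcript of their host, 17.9 and 2.76 kb from its start. The farthest were in DMD, the dystrophin gene (2106 kb, signal 13731), RUNX1 (1130 and 967.5 kb) and AUTS2 (1034 and 858.7 kb).

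For RUNX1, a transcription factor of blood development, those distances depend on the gene record. The record spans 1217 kb, and from the start of the canonical transcript the same regions lay 174.2 and 12.1 kb away. Their signals were 13922 and 34667, and a further region 758.8 kb from the record's start had 39534. Over all members, the distance to the canonical start had a median of 16.2 kb, and 46 (7.35%) held that start, among them the regions of FOXN3, RMI2, BCAR3, SMIM20 and EEF1A1.

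Being free of a gene-record TSS did not make these regions free of transcript starts. Another protein-coding transcript of the host began inside 304 of the 626 (48.6%), and a transcript of any type in 441 (70.4%). The 304 were longer than the 322 without another protein-coding start, with a median of 68.2 against 53.8 kb. Their median signal was 20700 against 18298, while their signal per bp was lower at 0.341 against 0.378. A longer region has more room for a start, and signal rose with region length over the 626 (Spearman's rho 0.46). The part of length in these differences was not tested. The excess of constituent length described above was present in 101 of the 304 (33.2%) and in 14 of the 322 (4.35%). In the RefSeq start table, which listed 1 or more starts for the hosts of 520 members, 107 members (20.6%) held a start of their host.

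Nearly all bases were intronic in the super-enhancers that lay inside a canonical transcript. The other 114 (18.2%), among them the FOXN3 and RMI2 regions of highest signal, are left out of the shares that follow. Of 512 super-enhancers inside the span of a protein-coding canonical transcript, 98.2% of the bases lay in its introns and 1.84% in exons, and the median number of exons held was 3. The midpoint was in intron 1 in 123 (24.0%), in intron 2 in 107 (20.9%), in intron 3 in 61 (11.9%), in intron 4 or later in 213 (41.6%) and in an exon in 8. Intron 1 took up a median of 21.5% of the canonical span of their hosts. In 110 (21.5%) the whole region lay in 1 intron, 62 of them in intron 1. These 110 were shorter and denser, with medians of 43.7 kb and 0.543 per bp, than the 402 that held an exon, with 66.8 kb and 0.326. Median signals were 19868 for the 110 and 19329 for the 402. The split partly fixes this contrast, since a short region fits in 1 intron more easily. A short region must also be dense to pass the summed-signal cutoff.

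The host was not always the gene with the nearest TSS. The TSS of another protein-coding gene was nearer in 190 (30.4%), whose median distance to the host TSS was 97.5 kb, against 16.4 kb for the other 436. The split partly sets these distances, since it compares the host distance with that to another TSS. The median signals were 18166 for the 190 and 20019 for the 436. For the RMI2 region the nearest other TSS, that of PRM1, was 2.41 kb away, and for the largest CUX1 region that of SH2B2 was at 5.20 kb. A row that was not a member also touched 138 hosts (25.6%). Any row touched 17.2% of all protein-coding genes, 29.4% of those from 100 to 200 kb and 22.6% of those from 200 to 400 kb. These shares count members too, so they are not a like measure. A row of the table held the TSS of 43 hosts (7.98%), against 8.87% of all genes at least as long as the shortest host.

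Gene lists for B-cell functions differed in how many members held a super-enhancer. The lists were chosen with earlier results on these data known, so their counts are a description. Among 52 transcription factors of B cells and the germinal center, 17 (32.7%) were hosts, with 26 super-enhancers of median signal 34376, against 2.69% of all protein-coding genes and a median of 19486. Restricted to genes of 100 kb or more, 16 of 32 (50%) were hosts, against 11.4% of all such genes. The highest were in BACH2 (75398), FOXP1 (64674) and EBF1 (57186), a pioneer factor of the B lineage whose other region had 45518. PAX5, the factor that maintains B-cell identity, had 51672, IKZF3 had 36335 and ETS1 had 34804, whereas POU2AF1, a coactivator of octamer factors, had only 10964, close to the cutoff.

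Among 60 genes of B-cell receptor and PI3K signalling, 22 (36.7%) were hosts, with 25 super-enhancers of median signal 28098, and 20 of 36 among the long ones. VAV2, an exchange factor downstream of the receptor, had 62684 over 193.4 kb. PRKCE, a protein kinase C, had 54757 in intron 1 and a second region of 16985. INPP5A, an inositol phosphatase, had 43727, LYN, a receptor-proximal kinase, 43420, and PTPRC, the CD45 phosphatase, 39215. PLCG2, which generates the second messengers of the receptor, had 23035, CBLB, an inhibitory ubiquitin ligase, 17635, and BLNK, the adaptor between SYK and PLCG2, 11999.

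Among 57 genes of surface receptors and antigen presentation, 2 (3.51%) were hosts, CIITA and CD86, near the 2.69% of all protein-coding genes. Some row of the table touched 20 of the 57 (35.1%), against 17.2% of all protein-coding genes. The median gene length of the list was 22.0 kb, and 1 of the 57 reached 100 kb. CIITA, the master activator of MHC class II genes, had a signal of 18324, 24.2 kb from the TSS and 7.57 kb from the TSS of DEXI. CD86 had 11673 (rank 2396) over 34.8 kb (chr3:122085917-122120689), 30.6 kb from its TSS in a gene of 65.8 kb, with 11 constituents, 6 exons and 1 other protein-coding transcript start.

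Chromatin regulators held super-enhancers of lower median signal. Of 69 genes, 15 (21.7%) were hosts with a median signal of 15739, and 13 of 36 long ones. TBL1XR1, a corepressor subunit mutated in lymphoma, had 46659, SMARCB1, a SWI/SNF subunit, 38287 over 25.6 kb, TRRAP, a scaffold of acetyltransferase complexes, 31277, and KMT2C, a paralog of KMT2D, 20555. Neither CREBBP nor KMT2D was a host. Among 74 DOCK, ARHGEF and ARHGAP genes, regulators of small GTPases, 9 (12.2%) were hosts, led by ARHGAP22 (24487), ARHGAP15 (24320) and ARHGAP24 (22646). Of 50 listed long genes best known from neurons, with a median length of 1110 kb, 1 (2.00%) was a host, DLGAP1 (26181). Among all genes of 800 kb or more, 7.69% were hosts. AUTS2, linked above to neurodevelopment and host of 6 super-enhancers, was not on this list, so the share holds for the listed genes only.

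**Figure D4:**
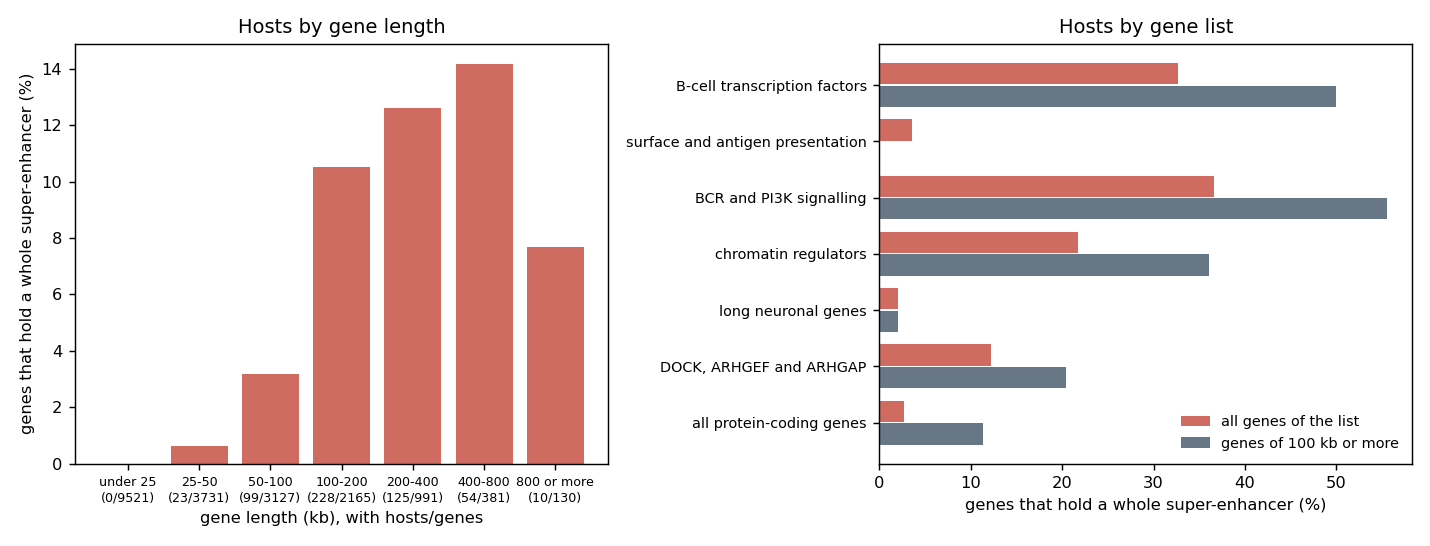
Share of protein-coding genes that held a whole super-enhancer, by gene length (left, with hosts/genes under each bar) and by gene list (right, red for all genes of a list, blue for its genes of 100 kb or more). The share peaks at 14.2% between 400 and 800 kb. Among genes of 100 kb or more, B-cell transcription factors stood at 50%, B-cell receptor and PI3K signalling at 55.6% and all genes at 11.4%. The 50 listed long neuronal genes, which leave out AUTS2 and have a median length of 1110 kb, stood at 2.00%, beside 7.69% of all genes of 800 kb or more.

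As a check of the cell type, markers of 4 lineages were looked up, against 2.69% of all protein-coding genes that were hosts and 17.2% that were touched by a row. Of 7 B-cell markers, PAX5 was a host and MS4A1 was touched by another row. None of the 4 T-cell or 3 epithelial markers was touched by any row, and of 3 myeloid markers CSF1R was touched.

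Non-coding genes were embedded in part of these regions, and their share in other rows was not determined. In 147 (23.5%), 1 or more lncRNA genes began, 191 starts in all, and 28 held 31 miRNA genes. RefSeq (GRCh38.p14) gave 32 mature sequences for 23 of these miRNA genes, with 32 distinct seeds, so no seed was shared. The following are printed because their hosts are B-cell transcription factors (PAX5, FOXP1) or because the miRNA is known as a tumor suppressor in several cancers (PDE2A, RCL1), with the seed, bases 2 to 8, in capitals.
hsa-miR-4476 in PAX5: cAGGAAGGauuuagggacaggc
hsa-miR-1284 in FOXP1: uCUAUACAgacccuggcuuuuc
hsa-miR-139-5p in PDE2A: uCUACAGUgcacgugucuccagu
hsa-miR-101-3p in RCL1: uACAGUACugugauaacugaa
The PAX5 region with the miR-4476 gene had the signal of 51672 given above, and the FOXP1 region with the miR-1284 gene was the one nearest to the TSS, at 46093. The PDE2A region, with miR-139, was weak at 17615 over 88.2 kb. No miRNA level was measured here.

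Members were unevenly spread over chromosomes as a share of the rows there. They made up 12 of 95 rows on chromosome 20 (12.6%) and 12 of 86 on chromosome 19 (14.0%), but 16 of 43 on chromosome 13 (37.2%) and 11 of 22 on chromosome X (50%). The other chromosomes lay between 14.1% and 32.2%.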

How the data were processed

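H3K27ac CUT&RUN of OCI-Ly7 WT clones was analysed from 1 deposited table of super-enhancers. Per the study's methods, the authors aligned reads to hg38 with an nf-core pipeline and IgG controls, scaled depth to promoter reads, used SEACR for peaks and MACS2 for their summits, and built super-enhancers with ROSE. The deposited signal is the ROSE signal per region for 1 pooled column of 2 libraries, with no control column. Its unit is not stated in the header and no read counts are given, so depth is unknown and no counting interval was made. The other columns give positions, constituents and rank, and constituents were stitched over 12.5 kb.

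Regions were classed against GENCODE version 44 with Python 3.11.15, numpy 2.4.6, pandas 2.3.3 and scipy 1.17.1. Signal per bp was signal over end minus start. No test was run, since 1 column has no replicates, and Spearman's rho is descriptive. Classification and distances were checked on constructed positions. The planned limma comparison of C, K and CK with WT was not run.

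Members and gene lists were chosen with earlier results of these data known. The rule named the 12 members of highest signal, hosts with 4 or more, the 5 highest per bp, the 5 nearest and 5 farthest from the TSS, the 3 highest per list, and CD86, of which some are not reported here. Other list genes, hosts with 3 members and the printed miRNAs were chosen after their values were seen. Alternatives changed the TSS set, host, gene body or measure. For them, a count was held to within 1.5 times, a share to its 95% Wilson interval, and a median to its 95% order-statistic interval.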

Additional observations from a re-analysis of the deposited data

How the results depend on the processing

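Of 29 alternatives over 8 results, 18 stayed within the limits given in the methods. The number of super-enhancers inside genes fell from 626 to 320 when the starts of all protein-coding transcripts counted as TSS, and to 308 in the upper part of the table by signal, which holds fewer rows. It was 437 when RefSeq starts also counted, an alternative chosen after seeing the data. The share above the median signal of the table, 49.2%, was 43.8% with all transcript starts and 44.9% with lncRNA starts as TSS, and 45.5% with RefSeq starts. The median distance from the host TSS, 29.9 kb, was 19.4 kb with canonical transcripts as gene bodies and 67.4 kb to the midpoint of the region. Host length had a median of 172.4 kb when counted once per member, against 154.9 kb. Other transcript starts were held by 70.4% instead of 48.6% when transcripts of any type counted, and 14.3% instead of 21.5% lay in 1 intron when exons of any protein-coding transcript counted. The central part of the edge windows held a motif in 24.3%, against 42.6% for the whole window. Of the 362 listed genes, 66 were hosts and 153 were overlapped by any row. The cause of shifts not set by construction was not tested. No paired analysis was possible because both WT libraries were merged into 1 column, and for the same reason no replicate could be left out. Sequencing depth and the spread between clones therefore limit every value here in a way that cannot be estimated.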
